A study of Mus musculus with 16 samples.

Results

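The genes described here, Zscan4c, Tcstv1, Tcstv3, Usp17la, Pramel37, Pramel6, Pramel7 and Arg2, were followed as genes of the 2-cell-like state across 16 expression arrays of mouse embryonic stem cells. Every probe whose gene name or accession in the scanner files belongs to a member was taken, which gave 12 probes for the 8 genes among the 41174 distinct probes of the array. Older names were counted: the files call Zscan4c Gm397, Usp17la Dub1 and Pramel37 BC061212. All 12 probes passed the filter on dim signal, which kept 26375 probes of 18282 genes. By the brightest probe of each gene, only Zscan4c, Tcstv1, Tcstv3 and Usp17la were well above background on all 16 arrays. The other 4 genes passed through the groups in which they were bright.

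E14 cells, a mouse embryonic stem cell line, carried a lentiviral short hairpin RNA that was stably expressed, and all groups were kept with the cytokine LIF, which holds back differentiation. The hairpin either targeted the deacetylase gene Sirt1 (sh-SIRT1) or was a control (sh-Control), and the cells received 20 nM retinoic acid (RA) or ethanol as vehicle for 2 days. The groups were sh-SIRT1 RA (n = 6), sh-Control RA (n = 4), sh-SIRT1 vehicle (n = 3) and sh-Control vehicle (n = 3). According to the submitters' design there were 3 pairs of lines, some run in duplicate, but which arrays are duplicates is not given, so all p-values measure the spread between arrays, which may be partly technical, and all arrays come from 1 parental line.

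In cultures of mouse embryonic stem cells, a small and changing fraction of cells switches on genes that the embryo uses at the 2-cell stage, and most of these cells later return to the usual state. The transcription factor Dux and retrotransposons of the MERVL family are known for this state, and Zscan4 genes are its most used markers. The arrays read RNA of whole cultures, so more cells in the state and more RNA per cell cannot be told apart.

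Levels below are log2 of the processed signal minus log2 of the 75th percentile of its array, so a level of 0 equals that percentile, and levels of different probes are not comparable with each other. Between 60.3 and 68.6% of the spots were well above background on each array, and no member spot was saturated. Sirt1 followed the labels: its level was 0.92 to 1.59 on the sh-SIRT1 RA arrays against 3.28 to 3.48 on the sh-Control RA arrays, and 1.83 to 1.89 on the sh-SIRT1 vehicle arrays against 3.53 to 3.85 on the sh-Control vehicle arrays. All 8 tested embryonic stem cell markers, Pou5f1 and Nanog among them, were well above background on every array. Arrays 2 to 4 of sh-Control RA stood apart in Y-linked genes: Ddx3y was at -6.91, -8.01 and -8.12 there, against 0.23 on array 1 of that group and 0.33 to 1.60 on the other 12 arrays. The comparisons that use sh-Control RA are therefore given also with array 1 alone and with arrays 2 to 4 alone. Among arrays of the same group, the SD of the log2 difference over genes was lowest for sh-Control RA arrays 3 and 4, at 0.214, and 0.269 to 0.736 for other pairs.

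Zscan4c encodes a zinc finger and SCAN domain protein that is known for telomere lengthening and genome stability in mouse embryonic stem cells. It was read by a probe at chr7:9713271-9713330 and by a second, dimmer probe at chr7:9711998-9712057 (build mm7, as all probe positions here). The 300 bases around its start site in RefSeq's build GRCm38.p6 (chr7:11005495-11005794, plus strand, 250 bases before and 50 after the start) are shown because the promoters of 5 of the 8 genes could be set side by side. Capitals mark TATAAA, at positions -54 to -49 from the start site, and, on the other strand, AGGTCA, at -236 to -231, the sequence of a single retinoic acid receptor half-site.
Zscan4c promoter: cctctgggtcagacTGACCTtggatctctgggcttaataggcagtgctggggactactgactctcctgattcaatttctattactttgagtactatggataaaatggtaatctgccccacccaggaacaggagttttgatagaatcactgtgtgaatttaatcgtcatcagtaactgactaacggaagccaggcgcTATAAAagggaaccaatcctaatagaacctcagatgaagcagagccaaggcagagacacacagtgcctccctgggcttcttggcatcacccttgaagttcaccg
Pramel37, whose promoter on the minus strand (chr5:94070496-94070795) is the other that holds TATAAA, at -28 to -23, is described below with its family.
Pramel37 promoter: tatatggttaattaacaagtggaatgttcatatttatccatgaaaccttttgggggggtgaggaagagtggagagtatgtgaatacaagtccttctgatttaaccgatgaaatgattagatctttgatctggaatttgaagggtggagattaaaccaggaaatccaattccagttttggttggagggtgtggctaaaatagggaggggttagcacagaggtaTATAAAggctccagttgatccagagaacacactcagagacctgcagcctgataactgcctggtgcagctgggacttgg
Both strands of 32851 RefSeq promoters of this length were searched for 4 motifs. AGGTCA was found in 5340 of them (16.3%) and TATAAA in 4473 (13.6%). The direct repeat of AGGTCA with a spacer of 5 bases, each match of which also counts as AGGTCA, was found in 3 (0.00913%), and a Dux-like motif in 11 (0.0335%). The repeat and the Dux-like motif were in no member promoter, and the promoters of Usp17la, Pramel6 and Pramel7 held none of the 4. The 5 promoters had 42 to 47% G and C and 1 to 4 CpG, where the median over all promoters was 52.7% and 7. A match is a description of letters and was not tested as a binding site.

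Zscan4c rose under RA in both lines, and RA and vehicle arrays did not overlap. In sh-SIRT1 RA cells its levels were 6.70, 6.93, 6.77, 5.97, 6.56 and 6.06, and in sh-Control RA cells they were 6.88, 7.16, 7.42 and 7.33. In sh-SIRT1 vehicle cells the levels were -2.93, -0.56 and -0.75, and in sh-Control vehicle cells -3.35, -1.51 and -1.64. The lowest RA array lay far above the highest vehicle array, array 1 was the lowest vehicle array in both lines, and arrays 4 and 6 were the lowest of sh-SIRT1 RA. The vehicle arrays of 1 group spanned 5.16-fold in sh-SIRT1 cells and 3.58-fold in sh-Control cells, while the RA arrays spanned 1.95-fold in sh-SIRT1 cells and 1.46-fold in sh-Control cells. RA minus vehicle was 7.91 ± 0.48 (SE) in sh-SIRT1 cells (241-fold, limma adjusted p = 2.18e-08) and 9.37 ± 0.52 in sh-Control cells (660-fold, adjusted p = 1.85e-08). These were the fifth largest increase of the 18282 genes in sh-SIRT1 cells (rank 5) and the second largest in sh-Control cells (rank 2). The second probe gave 7.46 ± 0.50 in sh-SIRT1 cells and 8.93 ± 0.54 in sh-Control cells. It was well above background on 2 of 3 vehicle arrays in each line. The files list the brighter probe for 2 and the dimmer for 3 RefSeq transcripts, so the values may include other Zscan4 copies.

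**Figure D1:**
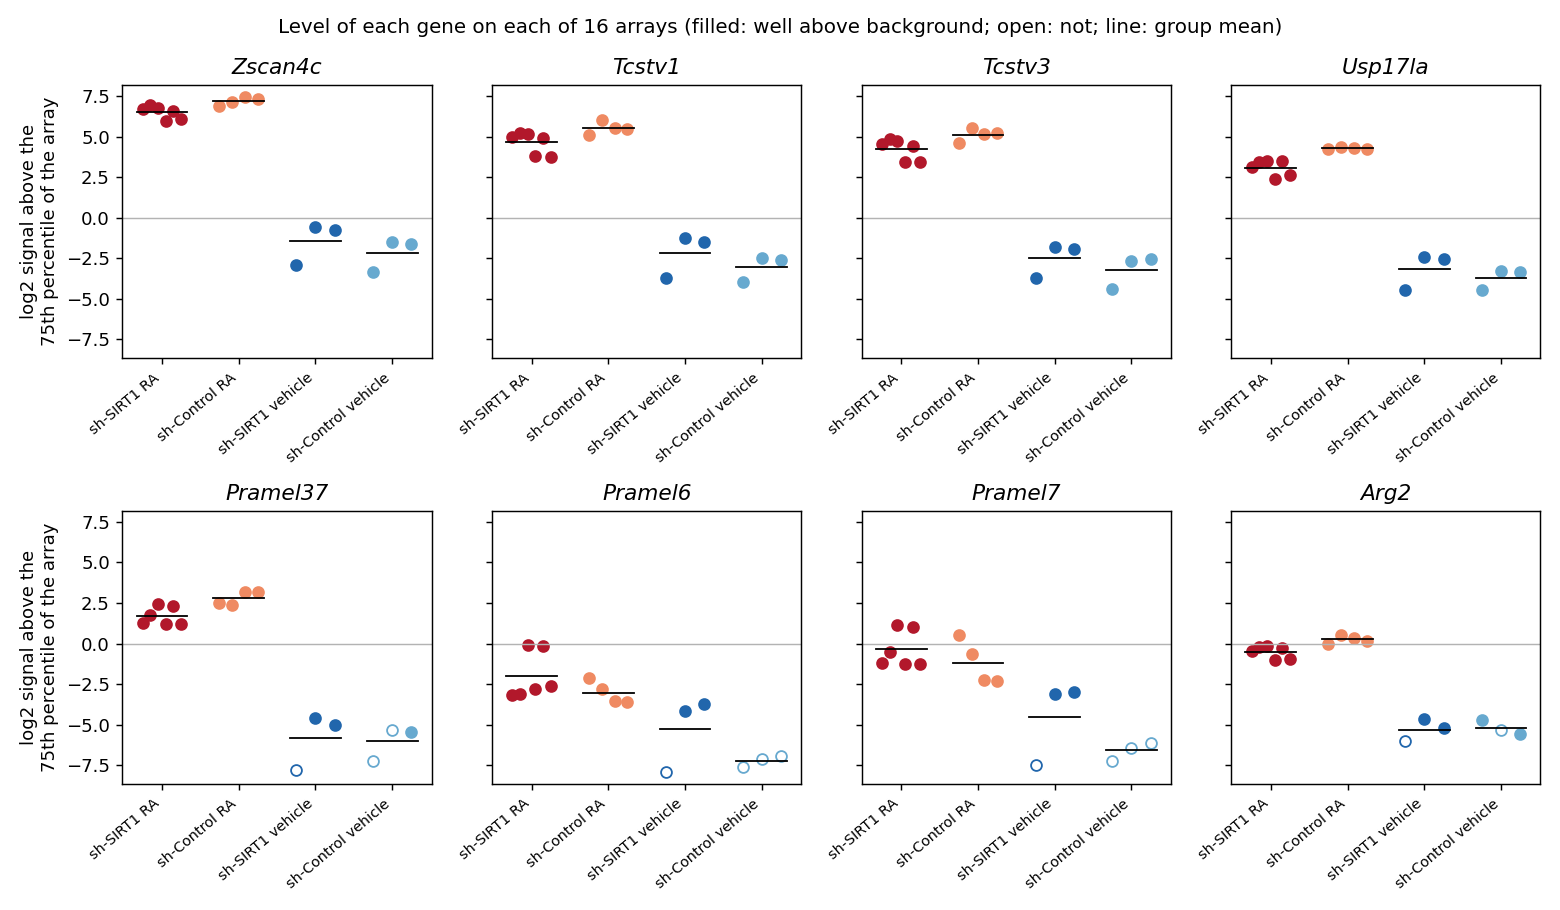
Level of each of the 8 genes on each array, as log2 signal above the 75th percentile of the array (y axis), by group (x axis); filled points are well above background, open points are not, and black lines are group means. Every RA array lies above every vehicle array of its line for all 8 genes, and Pramel6 and Pramel7 spread most in sh-SIRT1 RA, sh-Control RA and sh-SIRT1 vehicle but not in sh-Control vehicle.

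Tcstv1 and Tcstv3 belong to a variable gene group of the 2-cell embryo, and their proteins are known for telomere maintenance in mouse embryonic stem cells. Their probes lie on sequence that build mm7 does not place on a chromosome (Un_random 918057 to 918116 for the probe that stands for Tcstv1 and 304775 to 304834 for that of Tcstv3, minus strand). A further Tcstv1 probe (304741 to 304799) and the Tcstv3 probe overlap: by their mm7 positions, the first 25 bases of that Tcstv1 probe and the last 25 of the Tcstv3 probe read the same stretch. They are shown because they differ in a single base, in capitals, which is T14A counted from the 5′ end of the stretch (Tcstv3 first, Tcstv1 second).
Tcstv3 probe, last 25 bases: gtcttgccagcccTgagtacaaggt
Tcstv1 probe, first 25 bases: gtcttgccagcccAgagtacaaggt
The brightest probe of each gene is listed for 3 RefSeq transcripts, so these levels may include other copies. Probes of both genes lie close together on this sequence, and whether they separate Tcstv1 from Tcstv3 was not tested.

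Tcstv1 stood at 5.01, 5.22, 5.19, 3.82, 4.90 and 3.77 in sh-SIRT1 RA cells and at 5.12, 6.01, 5.55 and 5.48 in sh-Control RA cells. In vehicle it stood at -3.72, -1.23 and -1.50 in sh-SIRT1 cells and at -3.95, -2.46 and -2.61 in sh-Control cells. RA and vehicle arrays were widely separated in both lines, and array 1 was again the lowest vehicle array and arrays 4 and 6 the lowest of sh-SIRT1 RA. The RA difference of Tcstv1 was 6.80 ± 0.53 in sh-SIRT1 cells (112-fold, limma adjusted p = 1.75e-07) and 8.55 ± 0.57 in sh-Control cells (374-fold, adjusted p = 7.95e-08). The other 2 Tcstv1 probes gave 6.51 ± 0.49 and 6.74 ± 0.49 in sh-SIRT1 cells and 7.99 ± 0.53 and 8.55 ± 0.53 in sh-Control cells. These 2 probes share 40 bases, so they are not independent readings. The first was well above background on 1 of 3 sh-SIRT1 vehicle arrays and on none of sh-Control vehicle. Its 7.99 is thus a fitted value, and the fold there has only a lower bound.

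Tcstv3 had levels of 4.55, 4.84, 4.74, 3.41, 4.43 and 3.43 in sh-SIRT1 RA cells and of 4.60, 5.51, 5.18 and 5.20 in sh-Control RA cells. Its vehicle levels were -3.71, -1.81 and -1.94 in sh-SIRT1 cells and -4.37, -2.65 and -2.55 in sh-Control cells. RA and vehicle arrays did not overlap, and arrays 4 and 6 were again the lowest of sh-SIRT1 RA. For Tcstv3 the RA difference was 6.72 ± 0.50 in sh-SIRT1 cells (105-fold, limma adjusted p = 1.09e-07) and 8.32 ± 0.53 in sh-Control cells (319-fold, adjusted p = 6.26e-08). The second Tcstv3 probe (917863 to 917922) gave 6.53 ± 0.59 in sh-SIRT1 cells and 8.80 ± 0.64 in sh-Control cells. That probe was well above background on 2 of 3 sh-SIRT1 vehicle arrays and on none of sh-Control vehicle. Its 8.80 is thus a fitted value, and the fold there has only a lower bound.

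Usp17la encodes a deubiquitinating enzyme that was first known as a gene induced by cytokines in blood cells. Its probe lies at chr7:100918944-100919002 and is listed for 2 RefSeq transcripts, so these levels may include other copies. Usp17la was at 3.15, 3.43, 3.48, 2.41, 3.50 and 2.63 in sh-SIRT1 RA cells and at 4.23, 4.38, 4.27 and 4.24 in sh-Control RA cells. In vehicle it was at -4.48, -2.40 and -2.53 in sh-SIRT1 cells and at -4.45, -3.30 and -3.33 in sh-Control cells. The sh-Control RA arrays lay within 1.11-fold of each other and all above the 6 sh-SIRT1 RA arrays, which spanned 2.13-fold. Between RA and vehicle, Usp17la differed by 6.24 ± 0.41 in sh-SIRT1 cells (75.4-fold, limma adjusted p = 4.06e-08) and 7.97 ± 0.44 in sh-Control cells (251-fold, adjusted p = 1.85e-08).

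The 3 PRAME-like genes encode leucine-rich repeat proteins of a family with many copies in the mouse genome. Pramel7 is known from the inner cell mass, where it lowers DNA methylation by directing UHRF1 to degradation with the ubiquitin ligase scaffold CUL2, and Pramel6 is a closely related gene beside it. Pramel37 (probe at chr5:94053736-94053795) was at 1.29, 1.77, 2.41, 1.23, 2.34 and 1.23 in sh-SIRT1 RA cells and at 2.49, 2.35, 3.18 and 3.17 in sh-Control RA cells. It was at -7.82, -4.62 and -5.02 in sh-SIRT1 vehicle cells, well above background on 2 of 3 arrays, and at -7.22, -5.34 and -5.45 in sh-Control vehicle cells, well above background on 1 of 3. Arrays 3 and 5 were the highest of sh-SIRT1 RA, and array 3 reached into the range of sh-Control RA. RA minus vehicle was 7.53 ± 0.61 in sh-SIRT1 cells (limma adjusted p = 2.69e-07) and 8.80 ± 0.66 in sh-Control cells (adjusted p = 2.4e-07). These sizes rest partly on vehicle levels not above background: with normexp they were 5.01 ± 0.25 in sh-SIRT1 cells and 5.96 ± 0.27 in sh-Control cells. Without vehicle array 1 of the line they were 6.53 ± 0.48 in sh-SIRT1 cells and 8.19 ± 0.69 in sh-Control cells.

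Pramel6 (probe at chr2:87354305-87354364) was at -3.20, -3.11, -0.09, -2.82, -0.18 and -2.59 in sh-SIRT1 RA cells and at -2.14, -2.79, -3.56 and -3.59 in sh-Control RA cells. It was at -7.89, -4.13 and -3.71 in sh-SIRT1 vehicle cells, well above background on 2 of 3 arrays, and at -7.58, -7.13 and -6.96 in sh-Control vehicle cells, on none of which it was well above background. Arrays 3 and 5 of sh-SIRT1 RA stood alone at the top, and the other 4 arrays of that group lay within the range of sh-Control RA. RA minus vehicle was 3.25 ± 0.90 in sh-SIRT1 cells (9.49-fold, limma adjusted p = 0.00675) and 4.20 ± 0.97 in sh-Control cells (adjusted p = 0.00302), where the fold was at least 5.16, since a level not above background gives only a bound. Without sh-SIRT1 vehicle array 1 the difference in sh-SIRT1 cells was 1.92 ± 0.80 and no longer passed (limma adjusted p = 0.0594), and with normexp background correction the difference in sh-Control cells was 1.44 ± 0.59 (adjusted p = 0.0884).

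Pramel7 (probe at chr2:87332937-87332996) was at -1.17, -0.54, 1.15, -1.25, 1.04 and -1.25 in sh-SIRT1 RA cells and at 0.53, -0.63, -2.27 and -2.32 in sh-Control RA cells. It was at -7.52, -3.11 and -3.00 in sh-SIRT1 vehicle cells, well above background on 2 of 3 arrays, and at -7.23, -6.41 and -6.11 in sh-Control vehicle cells, on none of which it was well above background. The same arrays 3 and 5 were highest in sh-SIRT1 RA, and in sh-Control RA array 1 was highest and arrays 3 and 4 lowest. RA minus vehicle was 4.20 ± 0.96 in sh-SIRT1 cells (18.4-fold, limma adjusted p = 0.00187) and 5.41 ± 1.04 in sh-Control cells (at least 18.6-fold, adjusted p = 8.15e-04). Without sh-SIRT1 vehicle array 1 the Pramel7 difference in sh-SIRT1 cells was 2.72 ± 0.81 (limma adjusted p = 0.0134), and with normexp it was 2.41 ± 0.55 in sh-SIRT1 cells and 2.46 ± 0.60 in sh-Control cells.

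Arg2 encodes the mitochondrial arginase, which splits arginine into ornithine and urea. Its probe lies at chr12:77110462-77110521. It was at -0.47, -0.20, -0.18, -1.04, -0.30 and -0.93 in sh-SIRT1 RA cells and at -0.03, 0.55, 0.32 and 0.18 in sh-Control RA cells. In vehicle it was at -6.01, -4.67 and -5.21 in sh-SIRT1 cells and at -4.73, -5.33 and -5.57 in sh-Control cells, well above background on 2 of 3 arrays in each line. Every sh-Control RA array was above every sh-SIRT1 RA array, and array 1 was the highest vehicle array of sh-Control but the lowest of sh-SIRT1. RA minus vehicle was 4.78 ± 0.28 in sh-SIRT1 cells (27.5-fold, limma adjusted p = 1.57e-08) and 5.47 ± 0.30 in sh-Control cells (44.2-fold, adjusted p = 1.85e-08). With normexp the Arg2 differences were smaller, 2.96 ± 0.19 in sh-SIRT1 cells and 3.48 ± 0.20 in sh-Control cells.

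All 8 genes thus rose with RA in each line, where 23% of the 18282 genes rose in sh-SIRT1 cells and 19.7% in sh-Control cells. Pramel37, Pramel6, Pramel7 and Arg2 passed the filter only through the RA groups, which favours a rise. The members were also chosen with earlier results of these data known, so their counts beside all genes are a description. The groups overlapped for none of the 8, which held, in the upward direction, for 22.6% of all genes in sh-SIRT1 cells and 19.2% in sh-Control cells. The median difference of the 8 was 6.48 in sh-SIRT1 cells and 8.14 in sh-Control cells, and the medians of all genes were -0.13 in sh-SIRT1 cells and -0.14 in sh-Control cells. Without sh-SIRT1 vehicle array 1 the differences in sh-SIRT1 cells were 7.16 for Zscan4c, 6.02 for Tcstv1, 6.11 for Tcstv3 and 5.56 for Usp17la, and without sh-Control vehicle array 1 those in sh-Control cells were 8.77 for Zscan4c and 7.73 for Tcstv3. With normexp the differences in sh-Control cells were 8.78 for Zscan4c, 7.68 for Tcstv1, 7.27 for Tcstv3 and 6.75 for Usp17la, and those in sh-SIRT1 cells were 6.06 for Tcstv3 and 5.32 for Usp17la. With arrays 2 to 4 of sh-Control RA alone, the RA differences in sh-Control cells were 9.47 for Zscan4c, 8.69 for Tcstv1, 8.49 for Tcstv3, 7.99 for Usp17la, 8.91 for Pramel37, 3.91 for Pramel6, 4.84 for Pramel7 and 5.56 for Arg2. With array 1 alone they were 9.05, 8.12, 7.79, 7.92, 8.49, 5.09, 7.12 and 5.18 in the same order. All 8 genes passed in either case, but a single array has no spread of its own and was assumed to vary like the arrays of the other groups. Within slides, on each of which 4 arrays were scanned, Zscan4c differed by 6.53, 9.49 and 7.60 on slides 1 to 3 in sh-SIRT1 cells and by 10.77 and 8.52 on slides 1 and 4 in sh-Control cells. The within-slide differences of the other 7 genes were positive on every slide that held both treatments, from 1.31 for Pramel6 on slide 1 to 10.16 for Pramel37 on slide 2 in sh-SIRT1 cells, and from 4.02 for Pramel6 to 10.40 for Pramel37, both on slide 1, in sh-Control cells.

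**Figure D2:**
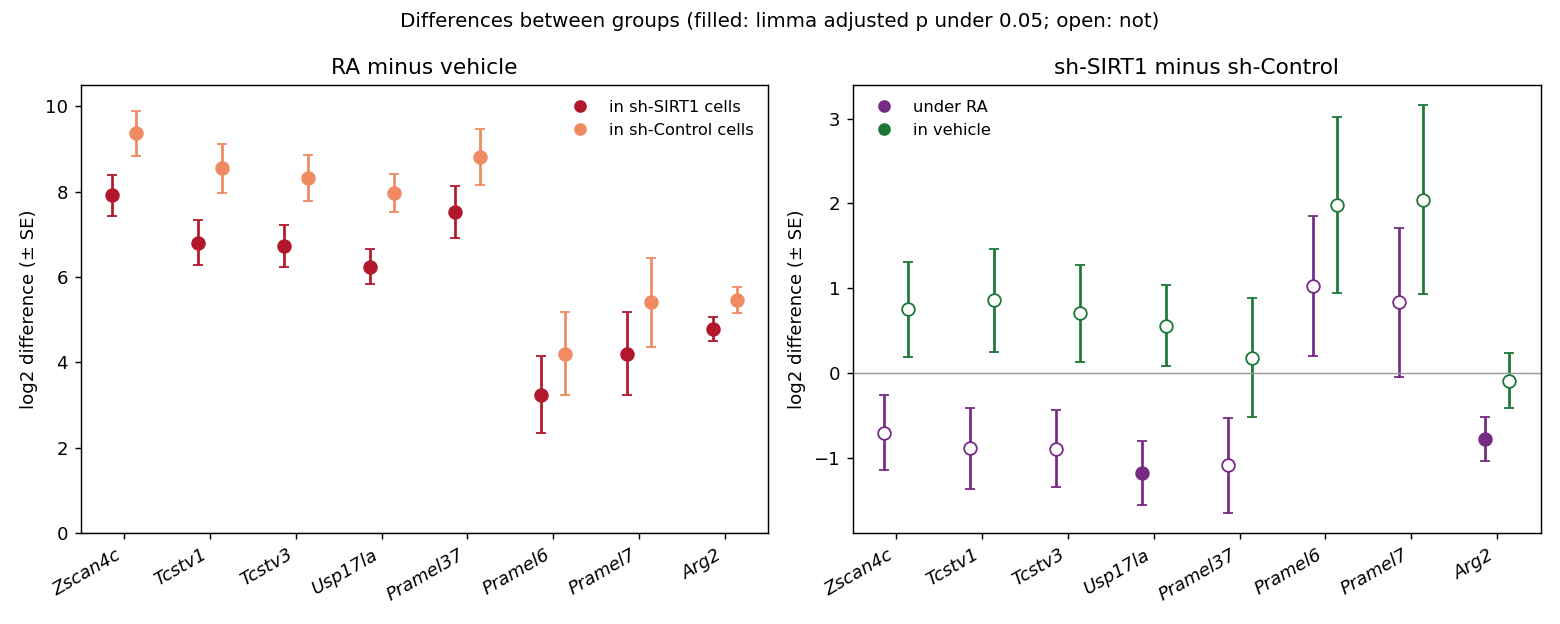
Log2 differences ± SE for the 8 genes (x axis): RA minus vehicle in sh-SIRT1 and sh-Control cells at the left, and sh-SIRT1 minus sh-Control under RA and in vehicle at the right; filled points passed limma's test at an adjusted p under 0.05. The fitted RA difference is smaller in sh-SIRT1 than in sh-Control cells for each gene, which for Pramel6 and Pramel7 rests on vehicle levels below background, and at the right Usp17la and Arg2 under RA are the filled points.

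Markers of other cell types moved with RA as well. Of 6 primitive endoderm markers, 5 rose in sh-SIRT1 cells and 5 in sh-Control cells, and all 5 tested trophectoderm markers rose in each line. Of 6 tested fibroblast markers, chosen to stand for feeder cells, 5 rose in sh-SIRT1 cells and 3 in sh-Control cells. Among all genes, 23% rose in sh-SIRT1 cells and 19.7% in sh-Control cells. The summed signal of the primitive endoderm list was 2685 to 4366 on the sh-SIRT1 RA arrays, 2662 to 18866 on the sh-Control RA arrays, 144 to 255 on the sh-SIRT1 vehicle arrays and 234 to 322 on the sh-Control vehicle arrays. For the trophectoderm list the sums were 3709 to 7745, 1955 to 4996, 149 to 456 and 194 to 529 in the same order. For the fibroblast list they were 4769 to 10771, 4456 to 14633, 811 to 1693 and 4043 to 5097. The fibroblast sum in sh-Control vehicle cells came mostly from Thy1, at a mean level of 2.45. The means of the other genes of that list were negative there, among them -2.14 for Col1a2 and -3.10 for Col1a1. Thy1 was lower in sh-SIRT1 vehicle cells (-2.48 ± 0.56, limma adjusted p = 0.0149). It passed with RA in neither line (0.84 ± 0.49 in sh-SIRT1 cells, -0.87 ± 0.53 in sh-Control cells). The sh-Control vehicle sum is thus no measure of the fibroblast list as a whole. On the sh-SIRT1 vehicle arrays Pdgfra of the primitive endoderm list and Col3a1 and Dcn of the fibroblast list were below background throughout. On the sh-Control vehicle arrays this held for Pdgfra, for Cdx2, Gata3 and Hand1 of the trophectoderm list, and for Dcn. The part of these cells in the RA differences of the 8 genes was not tested.

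The 8 genes were then compared between the hairpins. Under RA, 6 of them were lower and 2 higher in sh-SIRT1 cells by their means, and 2 passed the test, Usp17la and Arg2, both lower. Of all genes, 11.7% passed in the lower direction and 20.3% in either. Usp17la fell by 1.18 ± 0.38 (2.26-fold, limma adjusted p = 0.0394) and Arg2 fell by 0.77 ± 0.26 (1.71-fold, adjusted p = 0.0477), and their arrays did not overlap, which held in the lower direction for 8.92% of all genes. The remaining differences were -0.70 ± 0.44 for Zscan4c (limma adjusted p = 0.291), -0.89 ± 0.48 for Tcstv1 (0.216), -0.89 ± 0.45 for Tcstv3 (0.185) and -1.09 ± 0.56 for Pramel37 (0.189). Pramel6 differed by 1.03 ± 0.82 (limma adjusted p = 0.418) and Pramel7 by 0.83 ± 0.88 (0.551), with arrays 3 and 5 above and the others within the range of sh-Control RA. Some cell type markers differed here as well. Nanog (-0.76), Sox2 (-0.95), Zfp42 (-0.47) and Tdgf1 (-1.06) passed as lower in sh-SIRT1 cells. Pou5f1, Esrrb, Klf4 and Dppa5a did not pass. Cdx2 (1.40) and Gata3 (1.59) passed as higher, while Eomes, Hand1 and Krt7 did not pass. No primitive endoderm or fibroblast marker passed. The part of this in the differences of the 8 genes was not tested.

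The replicate numbers were taken to pair the arrays of the 2 lines within a treatment, which the labels do not state. With the number as a block, Usp17la kept its call (-1.16 ± 0.21, limma adjusted p = 0.00942). Pramel37 then passed (-1.12 ± 0.27, limma adjusted p = 0.0237) and Arg2 did not (-0.72 ± 0.31, adjusted p = 0.118). Against array 1 of sh-Control RA alone, Usp17la differed by -1.13 ± 0.71 and Arg2 by -0.49 ± 0.47 with no call among the 8, and Pramel7 turned to -0.87. The spread there comes from the other groups, and the difference of Usp17la hardly moved while its SE grew. Against arrays 2 to 4 alone, Arg2 passed (-0.87, limma adjusted p = 0.0431), and Usp17la, at -1.20 ± 0.43, did not (adjusted p = 0.0592). Both calls lay near the threshold: that of Usp17la was lost when any 1 of the 4 sh-Control RA arrays or array 1, 4 or 6 of sh-SIRT1 RA was left out (limma adjusted p of 0.0534 to 0.0847), and that of Arg2 without sh-Control RA array 2, 3 or 4, sh-SIRT1 RA array 1, 4, 5 or 6, sh-Control vehicle array 2 or 3, or sh-SIRT1 vehicle array 3 (0.0504 to 0.112). Without the vehicle arrays numbered 1, which enter only through the shared estimate of the spread, Zscan4c (limma adjusted p = 0.0193) and Pramel37 (adjusted p = 0.0153) passed as well. Within slides 1, 2 and 4, Usp17la differed by -1.86, -0.80 and -1.34 and Arg2 by -1.35, -0.66 and -0.67, so each was lower on all 3, as were Zscan4c, Tcstv1, Tcstv3 and Pramel37. Pramel6 differed by 0.75, 3.02 and -0.76 and Pramel7 by 1.03, 2.51 and -1.75 on these slides, which is no common direction.

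In vehicle, 7 of the 8 means were higher in sh-SIRT1 cells and 1, that of Arg2, was lower, and none passed limma's test (0 at an unadjusted p under 0.05 as well), against 8.62% of all genes. The differences were 0.75 ± 0.56 for Zscan4c, 0.86 ± 0.61 for Tcstv1, 0.70 ± 0.57 for Tcstv3, 0.56 ± 0.48 for Usp17la, 0.18 ± 0.70 for Pramel37 and -0.09 ± 0.33 for Arg2, with adjusted p-values of 0.43 to 0.905. Pramel6 differed by 1.98 ± 1.04 (limma adjusted p = 0.273) and Pramel7 by 2.04 ± 1.11 (0.293), and both were below background on all sh-Control vehicle arrays, so that the folds were at least 1.11 for Pramel6 and at least 1.80 for Pramel7. The mean of these 2 genes in sh-SIRT1 cells rests on arrays that disagree: array 1 lay near the control arrays and arrays 2 and 3 several units above. Without that array, but with array 1 of sh-Control kept, the differences were 3.30 ± 0.89 for Pramel6 and 3.53 ± 0.91 for Pramel7. Both then passed (limma adjusted p = 0.0494 and 0.041). Neither passed when the vehicle arrays numbered 1 of both lines were left out. With normexp the differences were 0.37 ± 0.63 for Pramel6 and 0.52 ± 0.64 for Pramel7, and neither passed. Number by number, Pramel7 differed by -0.28, 3.30 and 3.11 and Zscan4c by 0.42, 0.95 and 0.89 between the vehicle arrays numbered 1, 2 and 3. Within slides 1 and 3, Zscan4c differed by 2.79 and 0.76 and Pramel7 by 4.12 and 3.41, and slide 1 held the low array 1 of sh-Control.

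By fitted values the RA difference was smaller in sh-SIRT1 than in sh-Control cells for all 8 genes, with a median difference in log2 units of -1.36 (-0.03 over all genes), but none passed the test of that difference, where 3.59% of all genes did. Usp17la differed by -1.74 ± 0.61 (limma adjusted p = 0.12), Tcstv1 by -1.75 ± 0.78 (0.223), Tcstv3 by -1.59 ± 0.73 (0.239) and Zscan4c by -1.45 ± 0.71 (0.272). The first 3 had an unadjusted p under 0.05. Pramel37 differed by -1.27 ± 0.90 and Arg2 by -0.69 ± 0.42. The fitted values were -1.21 ± 1.42 for Pramel7 and -0.96 ± 1.33 for Pramel6, but both were below background in sh-Control vehicle cells, so the order of their RA differences between the lines is not set. With the replicate number within a treatment as a block, Usp17la (-1.72 ± 0.32, limma adjusted p = 0.0293) and Zscan4c (-1.36 ± 0.31, adjusted p = 0.0425) passed. Without the vehicle arrays numbered 1, an alternative chosen after seeing the data, the same 2 genes passed (Usp17la -2.03 ± 0.38, limma adjusted p = 0.0159, and Zscan4c -1.62 ± 0.35, adjusted p = 0.027), and without sh-SIRT1 vehicle array 1 only Usp17la did (-2.41 ± 0.44, adjusted p = 0.0179). With normexp background correction the difference of Pramel6 turned to 0.14 and that of Pramel7 was -0.05. Slide 1 was the single slide with all 4 groups, and there the differences ran from -4.56 for Pramel37 to -1.41 for Arg2. They rest on 1 array per group. The slide held array 1 of sh-Control vehicle, the lowest of its group for all genes but Arg2, and array 2 of sh-SIRT1 vehicle. It also held array 4 of sh-SIRT1 RA, among the lowest of its group for all genes but Pramel6. A low array in sh-Control vehicle or in sh-SIRT1 RA makes this difference more negative.

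Among the arrays of a group, the 8 genes did not all vary together. After removal of group means, the values of Zscan4c over the 16 arrays correlated with Usp17la at r = 0.95, with Tcstv3 and Tcstv1 at 0.94 each and with Pramel37 at 0.93, but with Pramel7 at 0.62, with Pramel6 at 0.55 and with Arg2 at 0.43. Pramel6 and Pramel7 correlated with each other at 0.94. All these points share their array and its scaling, and the low vehicle arrays numbered 1 enter each of them. The SD of the deviations was 1.38 for Pramel6 and 1.48 for Pramel7 in log2 units, against 0.42 for Arg2 and 0.63 to 0.93 for the other 5.

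Within the 6 sh-SIRT1 RA arrays, arrays 4 and 6 were the 2 lowest for 7 of the 8 genes, though for Pramel37 and Pramel7 array 1 lay close to them. The exception was Pramel6, for which arrays 1 and 2 were lowest. Arrays 3 and 5 were the 2 highest for Pramel37, Pramel6, Pramel7 and Usp17la, and for Pramel6 and Pramel7 they stood clearly above the others. Arg2, which was not close to Zscan4c over all arrays, followed it here at r = 0.96, while Pramel6 correlated with Zscan4c at 0.21 and with Pramel7 at 0.94. The arrays of neither pair shared a slide. The SD of the log2 difference over genes was 0.269 between arrays 3 and 5 and 0.343 between arrays 4 and 6. Pairs within this group ranged up to 0.616. Arrays 4 and 5 (0.297), 3 and 6 (0.325) and 3 and 4 (0.332) were closer than arrays 4 and 6, and arrays 5 and 6 (0.363) were not. Over all genes, arrays 4 and 6 were thus not set apart from arrays 3 and 5.

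**Figure D3:**
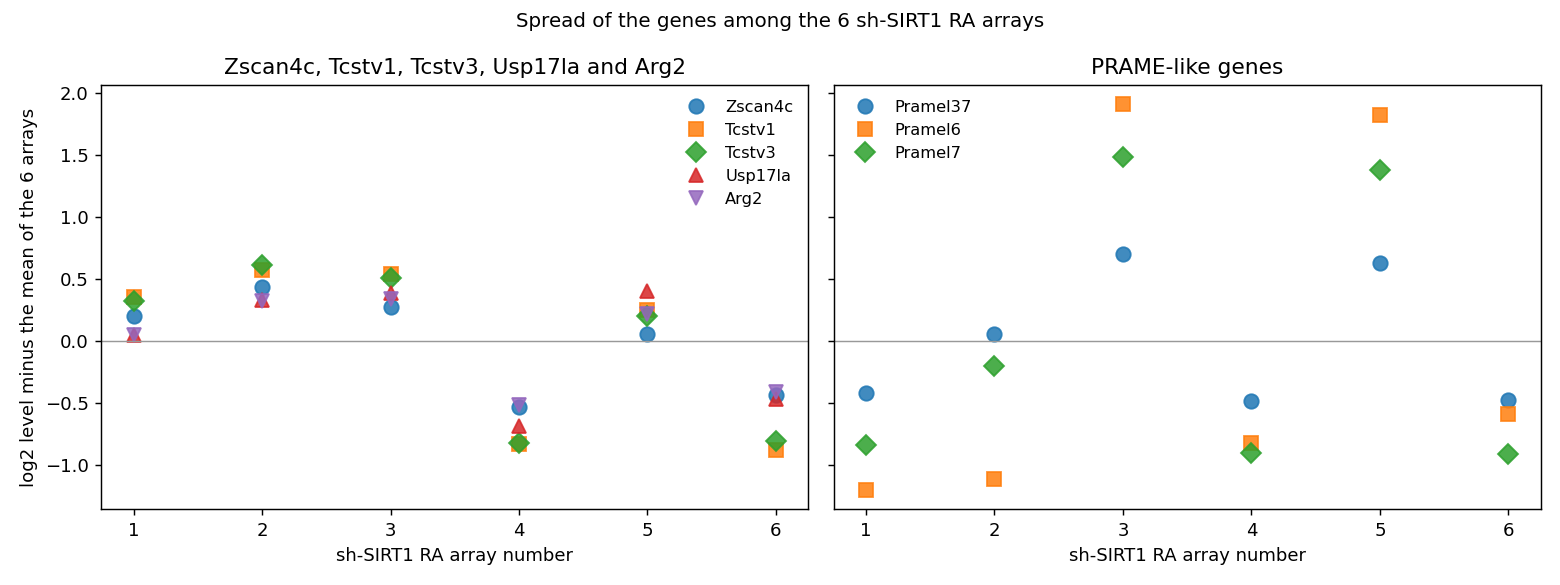
Level of each gene on the 6 sh-SIRT1 RA arrays (x axis, array number) minus the mean of these arrays (y axis, log2 units). Arrays 4 and 6 are the 2 lowest for every gene but Pramel6, and arrays 3 and 5 are the 2 highest for the 3 PRAME-like genes at the right and for Usp17la at the left.

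The genes outside the 8 with the level most like Zscan4c were named by Pearson's r over the 16 arrays. They were a transcript that the files call ENSMUST00000022576 and Usp17lb, a further deubiquitinating enzyme of the Usp17 family, both at r = 0.996, then Lgals6 and Lgals4, genes of galectins, at 0.994 each, and Pramel39, of the PRAME-like family, at 0.993. LOC625240 (0.993), Zfpm1 (0.992), Krtap4-13 (0.992), 0610040J01Rik (0.990) and LOC544881 (0.990) completed the first 10. For all of them the likeness over 16 arrays is mainly that between RA and vehicle: Lgals4 rose by 5.71 in sh-SIRT1 cells and by 6.09 in sh-Control cells. By deviation from the group means, among the 2700 genes with an SD of at least 0.5, the order was another: Ldhc, a lactate dehydrogenase of the testis, led at r = 0.958 and Pla2g4a, a phospholipase, followed at 0.952. Neither passed the test of RA against vehicle in sh-Control cells (0.36, limma adjusted p = 0.74, for Ldhc and 0.08, adjusted p = 0.914, for Pla2g4a). Upk2 (0.944), Pdlim3 (0.941), Pld1 (0.935), Clca1 (0.934), LOC625240 (0.927), Klhl13 (0.926), Slfn10 (0.925) and Gulo (0.924) came next, and LOC625240 was the only gene in both orders.

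Of 33 other genes of the 2-cell-like state, 9 were found on the array and tested. RA raised 7 of them in sh-SIRT1 cells and 8 in sh-Control cells, with medians of 3.87 in sh-SIRT1 cells and 4.74 in sh-Control cells. The shares of all genes that rose were 23% in sh-SIRT1 cells and 19.7% in sh-Control cells. Among the 9, 3 were well above background on no sh-SIRT1 vehicle array and 4 on no sh-Control vehicle array. Usp17lb and Usp17lc were so in both lines, so the filter kept them only through RA groups. Zfp352, a zinc finger gene, rose by 5.09 ± 0.56 in sh-SIRT1 cells and at least 58.1-fold in sh-Control cells, where it was not well above background in vehicle. Usp17lb rose at least 48.1-fold in sh-SIRT1 cells and at least 84.0-fold in sh-Control cells, and Usp17lc at least 5.01-fold and at least 7.41-fold in the same order. BB287469, which the files call LOC544881, rose by 5.23 ± 0.26 in sh-SIRT1 cells and by 6.19 ± 0.28 in sh-Control cells. Sp110, a nuclear body gene, rose by 2.06 ± 0.23 in sh-SIRT1 cells and by 3.38 ± 0.25 in sh-Control cells, and it was the gene of this list that passed the test of the difference between the RA effects (-1.32 ± 0.34, limma adjusted p = 0.0489). Tdpoz1 did not pass in either line (-0.30 ± 0.33 in sh-SIRT1 cells, -0.43 ± 0.36 in sh-Control cells), nor did Ddit4l in sh-SIRT1 cells. Between the hairpins under RA, Usp17lb fell by 1.11 ± 0.31 (limma adjusted p = 0.0219), which made it the gene of the 9 that passed. Whether the probes of Usp17la and Usp17lb read the same copies was not tested.

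Of 11 further PRAME-like genes on the array, 5 were kept. RA raised 4 of them in sh-SIRT1 cells and 3 in sh-Control cells, where 23% and 19.7% of all genes rose. Pramel39, Pramel48 and Pramel4 passed the filter only through the RA groups, which favours a rise, so these counts are a description. Pramel39 rose by 7.17 ± 0.48 in sh-SIRT1 cells and at least 202-fold in sh-Control cells, Pramel48 at least 8.50-fold and at least 12.6-fold in the same order, and Pramel4 at least 2.97-fold and at least 3.67-fold. Pramel13 rose by 1.13 ± 0.19 in sh-SIRT1 cells and differed by 0.09 ± 0.20 in sh-Control cells. Pramel12 passed in neither line. Under RA, Pramel48 fell by 0.90 ± 0.28 (limma adjusted p = 0.0342) and Pramel12 fell by 0.62 ± 0.20 (adjusted p = 0.0363) in sh-SIRT1 against sh-Control cells.

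Among 6 genes known to favour the state, 4 rose and 2 fell with RA in each line. The shares of all genes were 23% that rose and 35.3% that fell in sh-SIRT1 cells, and 19.7% and 27.2% in sh-Control cells. Dppa2, a chromatin protein upstream of Dux, rose by 0.72 ± 0.18 in sh-SIRT1 cells and by 1.23 ± 0.19 in sh-Control cells, while its partner Dppa4 fell by 0.87 ± 0.09 in sh-SIRT1 cells and by 0.52 ± 0.10 in sh-Control cells. The transcription factor Gata2 rose by 3.05 ± 0.20 in sh-SIRT1 cells and by 2.04 ± 0.22 in sh-Control cells, Tbx3 by 1.35 ± 0.22 and 1.14 ± 0.24, and Nelfa by 0.41 ± 0.15 and 0.93 ± 0.16 in the same order. Trp53, the gene of p53, fell by 1.07 ± 0.12 in sh-SIRT1 cells and by 0.46 ± 0.13 in sh-Control cells.

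Of 21 genes known to hold the state back, 16 fell and 1 rose with RA in sh-SIRT1 cells and 14 fell and none rose in sh-Control cells, against 35.3% of all genes that fell in sh-SIRT1 cells and 27.2% in sh-Control cells. Their median differences were -0.45 in sh-SIRT1 cells and -0.44 in sh-Control cells, so the changes were small beside those of the 8 genes. Rif1, a telomere and chromatin protein, fell by 1.42 ± 0.17 in sh-SIRT1 cells and by 0.67 ± 0.19 in sh-Control cells. The histone chaperone subunit Chaf1b fell by 0.72 ± 0.14 in sh-SIRT1 cells and by 0.80 ± 0.15 in sh-Control cells, and Mga, of a Polycomb complex, by 0.68 ± 0.10 and 0.99 ± 0.11 in the same order. Under quantile normalization 9 of the 21 fell and 2 rose in sh-SIRT1 cells and 7 fell and 1 rose in sh-Control cells, while 5387 of the 18282 genes fell in sh-SIRT1 cells and 4129 in sh-Control cells. Kdm1a, a histone demethylase named here after its values were seen, passed with RA in neither line but was lower in sh-SIRT1 than in sh-Control cells (-1.03 ± 0.12 under RA, limma adjusted p = 1.53e-04, and -1.07 ± 0.16 in vehicle, adjusted p = 0.00114).

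**Figure D4:**
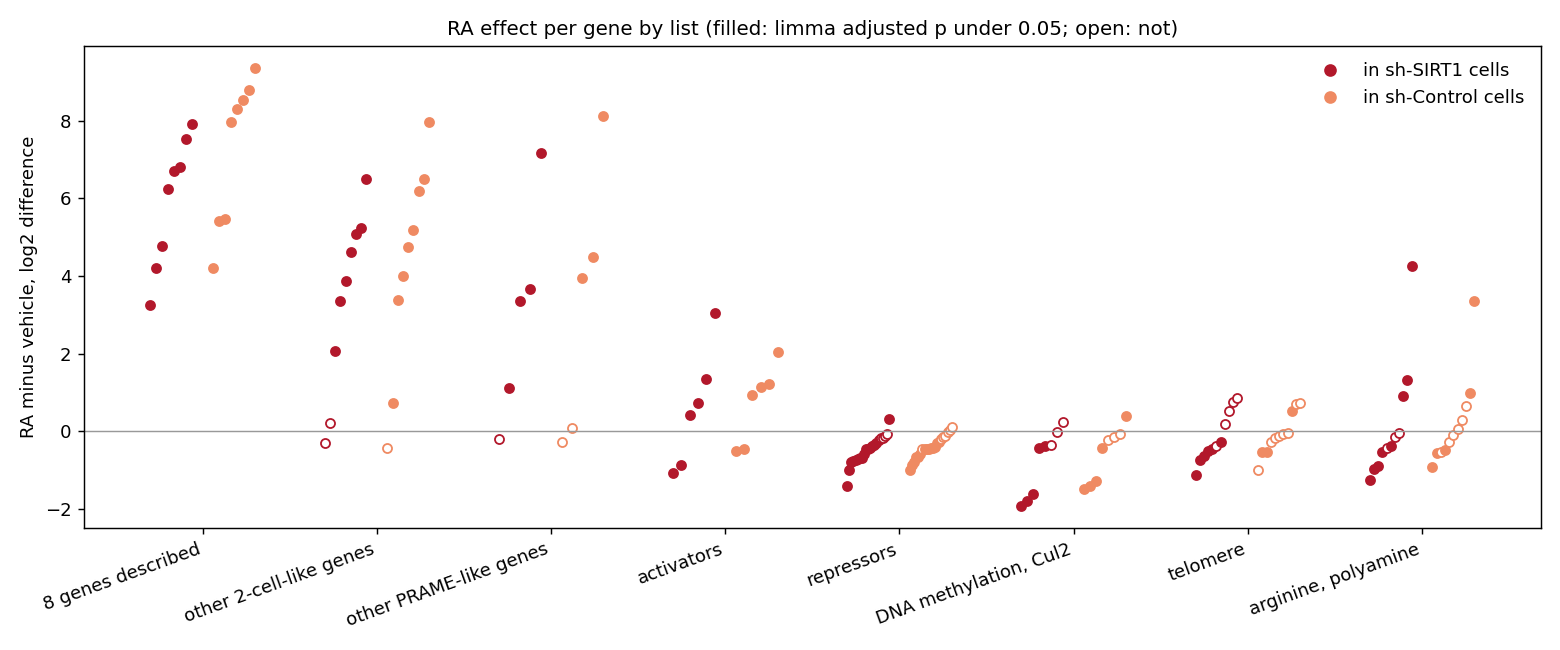
RA minus vehicle as log2 difference (y axis) for each gene of the lists (x axis) in sh-SIRT1 and sh-Control cells; filled points passed limma's test at an adjusted p under 0.05. The 2-cell-like and PRAME-like genes reach up to 7.91 in sh-SIRT1 and 9.37 in sh-Control cells, while repressors lie between -1.42 and 0.31 in sh-SIRT1 and between -0.99 and 0.12 in sh-Control cells.

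For Pramel7's known pathway, 8 genes of DNA methylation and its ligase were tested. RA lowered 5 in sh-SIRT1 cells and 4 in sh-Control cells, and raised none in sh-SIRT1 cells and 1, Cul2, in sh-Control cells, where 35.3% of all genes fell in sh-SIRT1 cells and 27.2% in sh-Control cells. The methyltransferase gene Dnmt3b fell by 1.62 ± 0.16 in sh-SIRT1 cells and by 1.42 ± 0.17 in sh-Control cells, its cofactor Dnmt3l by 1.79 ± 0.42 and 1.49 ± 0.45, and the dioxygenase gene Tet1, Cxxc6 in the files, by 1.92 ± 0.14 and 1.29 ± 0.15 in the same order. Uhrf1 itself fell by 0.39 ± 0.13 in sh-SIRT1 cells (limma adjusted p = 0.022) and did not pass in sh-Control cells (-0.23 ± 0.14, adjusted p = 0.193). These are RNA levels, and UHRF1 protein was not measured.

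Of 11 telomere and recombination genes, 6 fell with RA in sh-SIRT1 cells and 2 in sh-Control cells, where 1, Terf2ip, rose. The shares of all genes that fell were those given above, 35.3% in sh-SIRT1 cells and 27.2% in sh-Control cells, so the count in sh-Control cells was not above the background. Terf1, a protein of telomere ends, fell by 1.13 ± 0.08 in sh-SIRT1 cells and by 0.54 ± 0.08 in sh-Control cells, and the difference of these effects passed (-0.60 ± 0.12, limma adjusted p = 0.0145). Tert, the telomerase gene, passed in neither line. Of 11 arginine and polyamine genes, 3 rose and 5 fell in sh-SIRT1 cells and 2 rose and 3 fell in sh-Control cells, which is near the shares of all genes that rose (23% in sh-SIRT1 and 19.7% in sh-Control cells) and fell (35.3% and 27.2%). Arg1, the cytosolic arginase, rose at least 4.63-fold in sh-SIRT1 cells and by 3.36 ± 0.66 in sh-Control cells, where 1 of 3 vehicle arrays was well above background, and Oat, which uses the ornithine that arginases make, rose by 0.92 ± 0.10 in sh-SIRT1 cells and by 0.98 ± 0.10 in sh-Control cells. Srm, of spermidine synthesis, fell by 0.97 ± 0.10 in sh-SIRT1 cells and by 0.91 ± 0.11 in sh-Control cells, and Odc1, which turns ornithine into putrescine, by 0.52 ± 0.14 and 0.57 ± 0.15 in the same order.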

How the data were processed

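RNA was hybridised with 1 colour (Cy3) to Agilent whole mouse genome arrays, 1 array for each of 16 samples. Whether each sample was a separate culture is not given. The authors deposited scanner files with processed signal intensities, background-subtracted by Agilent Feature Extraction per the file headers and version 9.5 per the submitters' processing notes, with probe positions in mm7. From these deposited intensities log2 values were computed, minus the log2 of each array's 75th percentile over spots that are not controls. Control and outlier spots were left out, and repeated spots of a probe were averaged. The filter kept 26375 of 41174 probes, those that every array of some group measured well above background, and the brightest probe stood for each of 18282 genes. Names came from the files or from RefSeq GRCm38.p6 accessions (17567 kept probes).

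Group means were fitted to all 16 arrays in limma 3.58.1 (lmFit, eBayes, R 4.3.3), with Benjamini-Hochberg adjustment over all genes and a threshold of 0.05. Python 3.11.15, numpy 2.4.6 and pandas 2.3.3 were used for tables. The fit was tested on simulated data. A gene below background in a group has only a lower bound of its fold. The number of arrays limits the precision.

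The members and lists were chosen with earlier results of these data known. Named were the members, up to 4 genes per list and direction by size among those that passed, the 10 genes most like Zscan4c by level and by deviation from group means, and others where said. Replicate numbers were taken to pair arrays of the 2 lines within a treatment, which the labels do not state. Deviations from group means correlated for every same-numbered pair (r of 0.36 to 0.51 in vehicle and 0.43 to 0.54 under RA). Between RA and vehicle r was -0.21 to 0.22, and no pairing was assumed there. Arrays with different numbers were not compared in this way, so the pairing itself was not tested. Alternatives were quantile normalization, normexp (offset 50), no filter on dim probes, slide or replicate number as a block, each array left out, and subsets of arrays.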

Additional observations from a re-analysis of the deposited data

Results flagged for a closer look

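There were 24 sets of values, 1 for each of the 12 member probes in sh-SIRT1 RA and in sh-Control RA. In 1 of the 24 sets, 1 array stood far from the rest of its group. The dimmer Zscan4c probe was at 3.43 on array 1 of sh-Control RA, against 3.88 to 3.96 on the other 3 arrays, a gap of 0.846 of the group's range. Chance alone marks about 1 in 20 sets of normally spread values, and these sets share arrays and genes, so they are not independent. Array 1 is also the sh-Control RA array with Y-linked signal like that of the other groups, and the part of this in the value was not tested.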

How the results depend on the processing

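All 8 genes rose with RA in sh-Control cells under every alternative, except that normexp left 7, and in sh-SIRT1 cells 7 to 8 did. Of all genes, 8562 passed in sh-Control cells (4633 with normexp) and 10644 in sh-SIRT1 cells. Between the hairpins under RA 2 members passed. The count was 0 without the filter on dim probes, with array 1 of sh-Control RA alone and with arrays 3 and 4 of that group averaged, an alternative chosen after seeing the data. It was 1 under quantile normalization, with slide as a block, with arrays 2 to 4 alone and with the replicate block over all groups, 2 with the replicate block within treatment, 3 with normexp and 4 without the vehicle arrays numbered 1. With each array left out in turn it ran from 0 to 2. In vehicle 0 passed, 0 with the replicate block within treatment, and 0 to 2 with each array left out. For the difference between the RA effects 0 passed, 2 with the replicate block within treatment, 2 without the vehicle arrays numbered 1, and 0 to 1 with each array left out. Of all genes, 3706 passed between the hairpins under RA (1122 with normexp), 1576 in vehicle (268 to 3515, the lowest with normexp and the highest with the replicate block within treatment) and 657 for the difference between the RA effects (22 with normexp, 92 with slide as a block, 1885 with arrays 2 to 4 of sh-Control RA alone). The causes were not tested.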
